A study of Rattus norvegicus with 17 samples.

Results

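The genes described here are 10 chaperones and regulators of the heat shock and unfolded protein responses, taken by symbol from the 34322 genes of the count table: Hspa5, Hsp90b1, Xbp1, Atf4, Ddit3, Hsph1, Hsp90aa1, Dnajb1, Hspb1 and Hspa8. All 10 were in the table and all 10 passed the filter on low counts in every comparison. RNA was measured in the hippocampus of 17 adolescent Long-Evans rats, aged 36 to 38 days, from dams on 3 diets. Ethanol dams (ET, 5 offspring, 2 females and 3 males) received a liquid diet with 6.7% ethanol, which supplied 36% of calories, from gestational day 0 to 20. Pair-fed dams (PF, 6 offspring, 3 females and 3 males) received the liquid diet without ethanol in matched amounts, and ad libitum dams (AD, 6 offspring, 3 females and 3 males) had free access to chow. Each diet group came from 1 litter, so diet and litter cannot be told apart and p-values measure the spread between littermates. Left hippocampi were used except in 1 ET, 2 PF and 1 AD rats.

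The values are means over 3 technical replicates of each sample, and they summed to between 10853947 and 17498392 fragments per sample. Left out of the comparisons were 3 samples (ET replicate 2, PF animal 11f6 and AD replicate 4), which leaves 4 ET, 5 PF and 5 AD samples. The summed level of 10 choroid plexus markers, an epithelium that lies against the hippocampus, was 9677.9 to 11057.5 CPM (counts relative to the library total) in those 3 samples and 210.1 to 1760.0 in the other 14. Markers of hippocampal excitatory neurons were present in every sample, at 7554 to 10047 CPM summed over 10 genes, and the diet groups overlapped. The Y-linked genes went against the sex label in 2 samples, AD replicate 1 (labelled male, 0 normalized counts) and AD replicate 2 (labelled female, 1479 normalized counts). AD replicate 6 had 12886 normalized counts of Tph1, the tryptophan hydroxylase of the pineal gland, against at most 84.0 in the other 16 samples. In whole tissue, fewer cells of a type and less RNA per cell cannot be told apart.

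The unfolded protein response acts when unfolded proteins build up in the endoplasmic reticulum (ER). BiP, the product of Hspa5, then leaves the sensors PERK, IRE1 and ATF6: IRE1 splices Xbp1 mRNA, ATF6 is cleaved into a transcription factor, and PERK slows translation while favouring that of Atf4, which can induce Ddit3. The heat shock response is its counterpart in the cytosol, where HSF1 induces Hsp70, Hsp90, Hsp40 and small heat shock protein genes. Counts per gene show neither Xbp1 splicing nor Atf4 translation. Both responses are known in fetal tissue exposed to ethanol, and the comparisons ask whether their genes differed in the hippocampus weeks after exposure ended.

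Promoters of 9 of the 10 genes were given by RefSeq for the assembly GRCr8, as 250 bases before and 50 bases after the start of each gene. The ER stress element (CCAAT and CCACG with 9 bases of any kind between them), through which ATF6 and XBP1 act on ER chaperone genes, was searched on both strands and was present in 22 of 33469 promoters (0.0657%). Those 22 included Hspa5, Hsp90b1 and Xbp1. These stretches are shown because they hold the element. Capitals mark the element and the letters read in the direction of the gene, so the second Hsp90b1 site appears as the reverse complement.
Hspa5 (chr3:38452948-38453015, + strand): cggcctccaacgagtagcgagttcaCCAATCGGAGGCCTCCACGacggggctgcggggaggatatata
Hsp90b1, distal (chr7:23012426-23012494, - strand): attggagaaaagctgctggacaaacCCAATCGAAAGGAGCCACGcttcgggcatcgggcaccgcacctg
Hsp90b1, proximal (chr7:23012322-23012390, - strand): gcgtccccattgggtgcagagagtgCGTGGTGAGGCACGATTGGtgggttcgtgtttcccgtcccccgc
Xbp1 (chr14:84604533-84604601, + strand): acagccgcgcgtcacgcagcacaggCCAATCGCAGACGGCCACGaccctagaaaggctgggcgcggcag

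The heat shock element to which HSF1 binds, searched on both strands as GAA, TTC and GAA with 2 bases of any kind between each, was present in 267 of the 33469 promoters (0.798%), among them those of Hsph1 with 1 match and Hspa8 with 2. They are shown for contrast with the ER genes, with the element in capitals. The Hsph1 site and the proximal Hspa8 site appear as the reverse complement.
Hsph1 (chr12:10427307-10427367, + strand): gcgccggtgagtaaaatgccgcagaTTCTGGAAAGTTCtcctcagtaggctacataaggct
Hspa8, distal (chr8:50080276-50080338, + strand): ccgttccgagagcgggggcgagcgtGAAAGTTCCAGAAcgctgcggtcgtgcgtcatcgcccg
Hspa8, proximal (chr8:50080434-50080496, + strand): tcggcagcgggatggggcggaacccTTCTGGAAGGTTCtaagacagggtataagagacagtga

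Other motifs of these responses had no match in the 9 promoters: ER stress element II (ATTGG and CCACG with 1 base between them, 0.0508% of all promoters), the unfolded protein response element core TGACGTGG (0.595%) and the CEBP-ATF element TGATGNAA (3.98%). No printed site overlapped a match of another of the 5 motifs. Of the genes whose promoter held the ER stress element, 17 were tested in PF against AD, with a median log2 fold change of -0.02. At an adjusted p below 0.05, 2 were higher (11.8%, beside 4.32% of all genes) and 2 lower in PF (11.8%, beside 0.846%). Hspa5 was 1 of the 2 lower. In ET against PF, 2 of 17 were lower in ET (11.8%, beside 3.59% of all genes) and 0 higher. A match is a description of the letters and not evidence of binding.

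Hspa5, which encodes BiP, the Hsp70 of the ER lumen, was the member with the clearest difference between diets, and it was lower in PF than in AD. Its normalized counts (scaled for depth and composition over the 17 samples) were 4700.2, 4962, 5043 and 4416 in ET replicates 1, 3, 4 and 5. In PF replicates 1, 2 and 3, animal 11f5 and replicate 6 they were 4714, 4474, 4479.5, 4514 and 4698. AD replicates 1, 2, 3, 5 and 6 had 5717, 5248, 4927, 5384 and 5066. Every PF value was below every AD value, while ET overlapped both. The means were 4780.4 ± 283 in ET (SD, n = 4), 4576 ± 119.9 in PF (SD, n = 5) and 5268 ± 305 in AD (SD, n = 5). The samples left out had 5352 in ET replicate 2, 5478 in PF animal 11f6 and 5612 in AD replicate 4, and with them PF and AD overlapped.

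Hsp90b1 encodes GRP94, the Hsp90 of the ER. ET replicates 1, 3, 4 and 5 had 5457, 5445, 5504 and 5256 normalized counts, the 5 PF samples in the order above had 5156, 5363, 4947, 4895 and 4676, and the 5 AD samples had 5679, 5407, 5443, 5346 and 5219. The ET and AD means were close, at 5415 ± 109.5 (SD, n = 4) and 5419 ± 168 (SD, n = 5), and the PF mean was 5008 ± 262 (SD, n = 5), with 1 PF sample inside the range of both other groups. Hsp90b1 had the smallest spread of the 10 genes, with an SD within diets of 0.055 on the log2 scale.

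Xbp1, the transcription factor gene of the IRE1 arm, had 1474, 1190.0, 1319.5 and 1246 normalized counts in ET, 1294, 1201, 1113, 1331 and 1454 in PF, and 1537, 1427, 1405, 1398 and 1431 in AD. All AD samples were at or above 1398, a level reached by 1 of 4 ET and 1 of 5 PF samples. Its means were 1307 ± 123 in ET (SD, n = 4), 1278 ± 129.7 in PF (SD, n = 5) and 1439.7 ± 56.4 in AD (SD, n = 5).

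Atf4 encodes the transcription factor of the PERK arm and of the wider integrated stress response. Its normalized counts were 2577, 1735, 2049 and 2032 in ET, 2040.0, 2028, 1772, 1999 and 2134 in PF, and 1835, 1444, 1987, 1413 and 2399 in AD. AD held the lowest value and ET the highest, and the groups overlapped throughout. Ddit3, which encodes CHOP, the factor of prolonged ER stress, had 319.9, 204, 317 and 280.3 in ET, 310.3, 275, 259, 255 and 315 in PF, and 305, 305, 308, 316 and 321 in AD. The AD values lay within a narrow band at 311 ± 7.19 (SD, n = 5), against 280.2 ± 54.2 in ET (SD, n = 4) and 283 ± 28.2 in PF (SD, n = 5).

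Of the cytosolic chaperones, Hsph1 encodes an Hsp110 that exchanges the nucleotide of Hsp70. It had 5079.9, 5877, 5723 and 4729 normalized counts in ET, 4697, 4885, 5293, 4787 and 4959 in PF, and 5511, 5494, 5044, 5379.8 and 4823 in AD. Hsp90aa1, the stress-inducible cytosolic Hsp90, had 2101, 2369.9, 2464 and 2253 in ET, 1980.5, 2304, 2033, 2171 and 1664 in PF, and 2313, 2473, 2181, 2077 and 2063 in AD. The PF mean was the lowest of the 3 for both genes, at 4924 ± 229 for Hsph1 and 2030.3 ± 241 for Hsp90aa1 (SD, n = 5), and the diet groups overlapped in each. Dnajb1, the Hsp40 co-chaperone, had group means of 821 ± 61.6 in ET (SD, n = 4), 795 ± 70.0 in PF (SD, n = 5) and 829.9 ± 32.9 in AD (SD, n = 5), over a range of 711 to 912 in the 14 samples.

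Hspb1 encodes the small heat shock protein Hsp27. Its normalized counts were 65.7, 60.6, 78.8 and 58.6 in ET, 70.4, 60.1, 46.4, 66.6 and 79.8 in PF, and 87.8, 65.9, 66.9, 72.3 and 274 in AD. The value of 274 belongs to AD replicate 6 and lies far above the next highest of the 14, 87.8. The same sample stood apart in pineal genes: besides Tph1, it had 357 normalized counts of Asmt, the last enzyme of melatonin synthesis, against at most 16.8 elsewhere, and 203 of Crx, a pineal and retinal transcription factor, against at most 2.68. The 7 pineal genes examined, chosen after their values were seen, summed to 1152 CPM in AD replicate 6 and to 7.12 to 16.9 CPM in the other 16 samples. Their part in the Hspb1 value was not tested. Of the samples with high choroid plexus markers, ET replicate 2 (93.2) and PF animal 11f6 (110.5) were also the highest of their diets in Hspb1, and AD replicate 4 (94.5) was second to AD replicate 6.

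**Figure D1:**
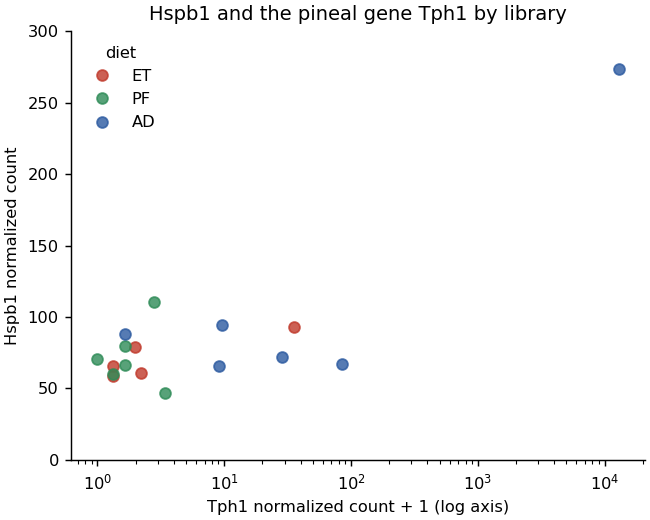
Hspb1 normalized count (vertical axis, linear) against Tph1 normalized count plus 1 (horizontal axis, log scale) in each of the 17 samples, coloured by diet. AD replicate 6, with 274 for Hspb1 and 12886 for Tph1, is far from the other 16 samples.

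Hspa8, which encodes the constitutive cytosolic Hsc70, had 10.6 to 24.5 normalized counts in the 14 samples, from a mean of 10.7 to 31.3 fragments per technical replicate before scaling in the 17. The level is uncertain: the assembly GRCr8 holds 33 pseudogenes named after Hspa8, none of which is in the count table, and fragments below a mapping quality of 10 were not counted. Gapdh and Ppia, which nearly every cell uses and which have 81 and 15 named pseudogenes there, had 162 ± 27.9 and 28.1 ± 4.63 normalized counts in ET (SD, n = 4). Normalized counts are not per length and do not rank the genes against each other. Of the other members, Hsp90aa1 has 16 such pseudogenes, Hsp90b1 has 2 and the rest have none. In the same annotation 3 members overlap another annotated gene with which fragments can be shared, Hsp90aa1 with LOC102549239, Ddit3 with Mars1 and LOC134479709, and Hspa8 with Snord14a and LOC120094548.

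**Figure D2:**
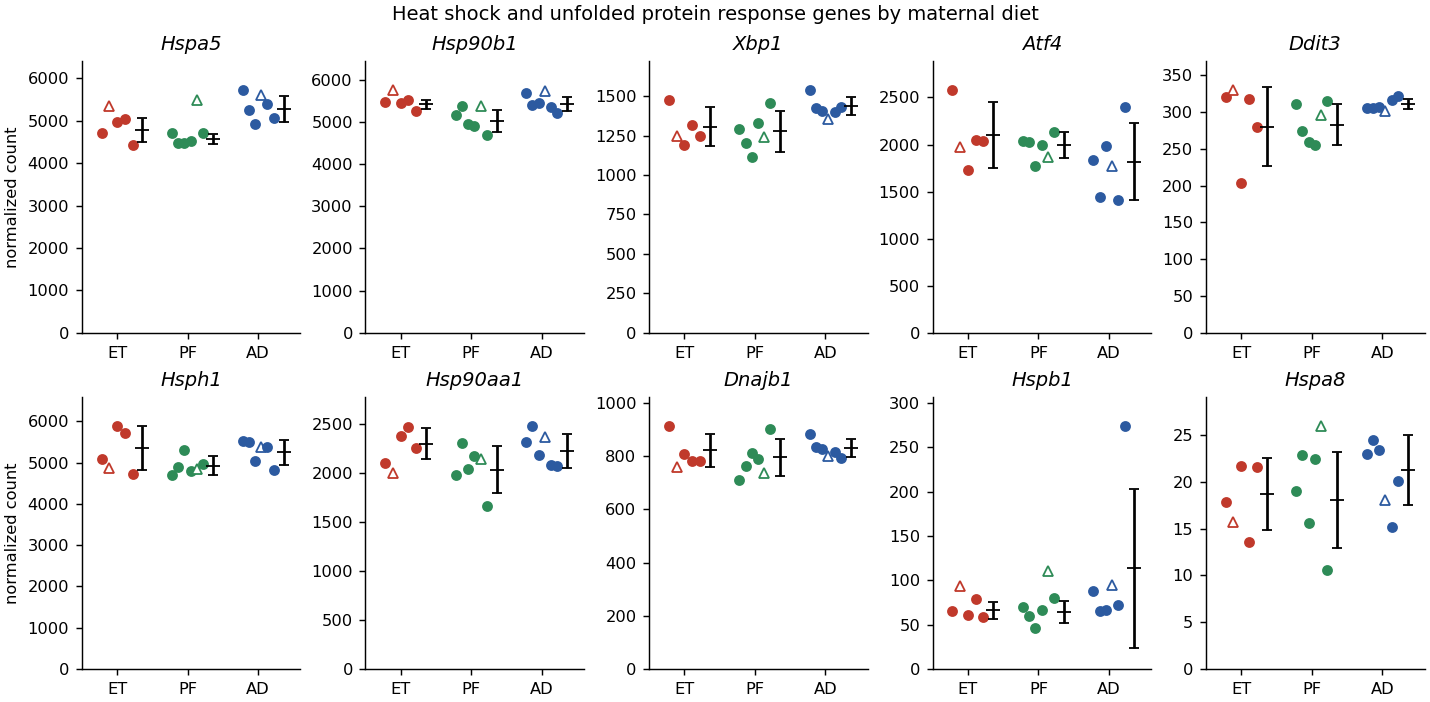
Normalized counts (vertical axes, from 0) of the 10 genes in each sample by diet. Filled circles are the 14 samples compared, open triangles the 3 left out, and the bars give the mean and SD of the filled circles; Hspa5 in PF lies below AD apart from the triangle of animal 11f6, and the AD mean of Hspb1 is raised by 1 sample at 274.

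ET was first compared with PF, the control for the liquid diet and its intake. None of the 10 genes passed an adjusted p below 0.05 in edgeR's quasi-likelihood test, where 4.13% of the 16068 genes tested did. None reached an unadjusted p below 0.05 either, where 11.9% of all genes did. DESeq2 gave 0 at the adjusted and 1 at the unadjusted threshold, where 650 genes were higher and 1023 lower in ET of 16068. Leaving out single samples gave at most 2 members at that unadjusted threshold, Hsp90aa1 and Hsp90b1 without PF replicate 2, and 1, Hsph1, without ET replicate 5. The log2 fold changes of ET relative to PF were 0.17 ± 0.0918 for Hsp90aa1 (SE, adjusted p = 0.544), 0.12 ± 0.0756 for Hsph1 (SE, adjusted p = 0.676) and 0.11 ± 0.0564 for Hsp90b1 (SE, adjusted p = 0.524). They were between -0.02 and 0.07 for the other 7, and 9 of the 10 were above 0. Without ET replicate 1, 6 of the 10 were above 0, with Dnajb1, Ddit3, Atf4 and Xbp1 between -0.09 and -0.01, and the signs of Hspa8 and Ddit3 each turned in 5 of 18 alternatives. The median of the 10 in all 9 samples was 0.05, beside 0.01 over all genes. The 95% interval for Hspa5 ran from -0.07 to 0.18, that for Hsp90aa1 from -0.03 to 0.38, and the widest, for Hspa8, from -0.47 to 0.56. No member's groups were separate, while 6.82% of all genes tested had groups that did not overlap.

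ET was next compared with AD, a comparison in which 2 of all 15749 genes tested (0.0127%) passed an adjusted p below 0.05. None of the 10 members did in edgeR's quasi-likelihood test, and no member's groups were separate, as those of 1.2% of all genes were. At an unadjusted p below 0.05 there was 1, Hspa5, beside 2.74% of all genes. With each sample left out in turn there were 0 to 2: 0 without ET replicate 5 or AD replicate 1, 2 or 5, and 2 without AD replicate 6. In that last fit 3.67% of all genes passed. Without ET replicate 1 it was Xbp1 in place of Hspa5, beside 4.94% of all genes. DESeq2 gave 0 members at the adjusted and 2 at the unadjusted threshold, where 181 genes were higher and 137 lower in ET of 15749. In edgeR, no member reached an unadjusted p below 0.05 with median-of-ratios scaling, no low-count filter, labelled sex as a covariate or the replicate block. The same held without overlapping genes or without AD replicates 1 and 2. Hspa5 had a log2 fold change of -0.14 ± 0.0625 in ET relative to AD (SE, edgeR unadjusted p = 0.0449, adjusted p = 1.00). Xbp1 had a similar value, -0.14 ± 0.0664 (SE, edgeR unadjusted p = 0.0577). Hsp90b1, Hsph1, Hsp90aa1 and Dnajb1 were between -0.02 and 0.05. The largest value, -0.77 ± 0.439 for Hspb1 (SE), became -0.15 ± 0.133 without AD replicate 6. Atf4 was at 0.21 ± 0.167 (SE) and 0.33 ± 0.145 without that sample (edgeR unadjusted p = 0.0479, adjusted p = 1.00).

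In PF against AD, 2 diets without ethanol, 1 of the 10 members passed an adjusted p below 0.05, beside 5.17% of the 15960 genes tested. The member was Hspa5, which fell in PF, a direction in which 0.846% of all genes passed. Its log2 fold change was -0.20 ± 0.048 (SE, edgeR adjusted p = 0.0322), with a 95% interval from -0.30 to -0.09. It was also the member whose groups did not overlap, as did 1.69% of all genes with PF below AD. The call lay close to the threshold and did not hold in 12 of 21 alternatives, in which the adjusted p reached 0.229, while the log2 fold change stayed between -0.25 and -0.16. The loss of PF replicate 1, 2 or 3, PF animal 11f5 or AD replicate 1, 2 or 5 alone took the edgeR adjusted p to between 0.0556 and 0.09. With all 17 samples it was -0.17 ± 0.0559 (SE, edgeR adjusted p = 0.0994), and without AD replicates 1 and 2, whose sex labels did not match, it was -0.16 ± 0.0546 (SE, edgeR adjusted p = 0.229). DESeq2 gave -0.20 ± 0.0462 (SE, adjusted p = 0.000578).

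Hsp90b1 and Xbp1, the other genes with an ER stress element, had log2 fold changes of -0.11 ± 0.0467 (SE, edgeR unadjusted p = 0.0384, adjusted p = 0.268) and -0.17 ± 0.065 (SE, edgeR unadjusted p = 0.0254, adjusted p = 0.215) in PF relative to AD. With Hspa5 they made 3 of 10 members at an unadjusted p below 0.05, all lower in PF, where 6.77% of all genes were. With each sample left out in turn the count in either direction was 1 to 5, beside 13.9% to 20.3% of all genes. It was 1 (Hspa5) without AD replicate 1, beside 14.1% of all genes, and 2 without PF replicate 2, PF replicate 3, PF animal 11f5 or AD replicate 5. It was 5 without AD replicate 6, beside 15.7% of all genes, where Hsph1 was also lower and Atf4 higher. Without PF replicate 6, the PF sample with the highest Xbp1, Xbp1 stood at -0.22 ± 0.0573 (SE, edgeR adjusted p = 0.0481). Ddit3 was at -0.13 ± 0.0657, Hsp90aa1 at -0.13 ± 0.0835, Hsph1 at -0.09 ± 0.0526 and Dnajb1 at -0.06 ± 0.0602 (SE), and none of these reached an unadjusted p below 0.05 in edgeR. Hspb1 moved from -0.79 ± 0.398 to -0.17 ± 0.147 (SE) without AD replicate 6, and Hspa8 was at -0.22 ± 0.201 (SE). Atf4, at 0.14 ± 0.131 (SE), was the single member with a positive value. The median of the 10 was -0.13, beside -0.003 over all genes. No member reached a stricter rule, an absolute log2 fold change above 1.5 and an adjusted p below 0.01, in any diet comparison. That rule was met by 2.17%, 0.0127% and 2.05% of genes in ET against PF, ET against AD and PF against AD. The comparisons share samples, so their values are not independent of each other.

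**Figure D3:**
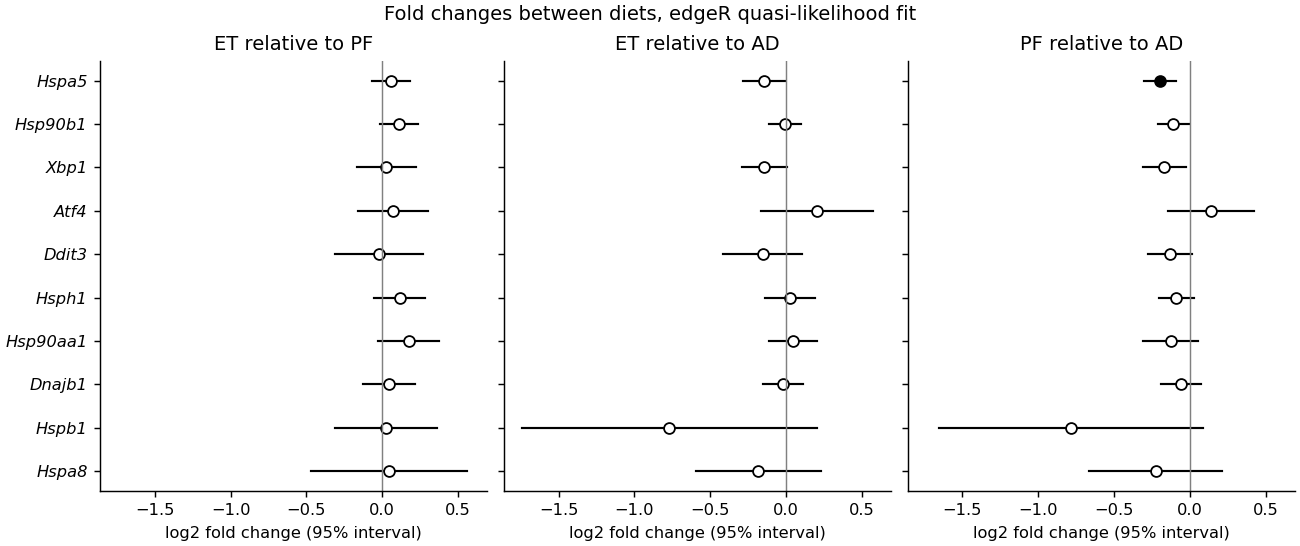
Log2 fold change (horizontal axes) of each of the 10 genes in the 3 diet comparisons from edgeR, with 95% intervals as bars. The filled point, Hspa5 in PF relative to AD at -0.20, is the single value with an adjusted p below 0.05, and the widest bars are those of Hspb1 where AD enters.

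The members belong to larger groups of stress genes, described here by 5 lists. Of the ER chaperone, folding and ER-associated degradation genes, 37 of 38 were tested. In PF against AD, 3 fell in PF (8.11%, beside 0.846% of all genes) and 1 rose (2.70%, beside 4.32%). Those that fell were Hspa5, Pdia4, a disulfide isomerase of the ER (-0.25 ± 0.0556, SE, edgeR adjusted p = 0.0194), and Creld2, a secreted ER stress-inducible protein (-0.35 ± 0.0826, SE, edgeR adjusted p = 0.0288). Pdia4 had 734 ± 47.5 normalized counts in ET (SD, n = 4), 656 ± 44.4 in PF (SD, n = 5) and 784 ± 37.3 in AD (SD, n = 5). The gene that rose was Derl3, a component of the degradation channel, at 0.53 ± 0.0962 (SE, edgeR adjusted p = 0.00457). At an unadjusted p below 0.05, 8 of 37 were lower in PF (21.6%, beside 6.77% of all genes) and 1 was higher (2.70%, beside 9.66%). Besides the genes that fell, these 8 held Hsp90b1, Hyou1, Calr, Manf and Sec61b, at log2 fold changes between -0.21 and -0.10. Hyou1 is an ER Hsp110, Calr encodes the lectin chaperone calreticulin, Manf is an ER stress-inducible secreted factor and Sec61b a subunit of the translocon. The median of the list was -0.04.

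In ET against PF, where 3.59% of all genes fell in ET, 1 gene of that list passed, Derl3, which fell in ET by 0.50 ± 0.0871 on the log2 scale (SE, edgeR adjusted p = 0.00616), and 0 rose. Pdia4 and Pdia6, both disulfide isomerases, were at 0.16 ± 0.0671 and 0.16 ± 0.0662 (SE) with edgeR adjusted p = 0.372 and 0.358. In ET against AD none of the 37 passed an adjusted p below 0.05. At an unadjusted p below 0.05, Ero1b, an ER oxidase, was at 0.18 ± 0.068 (SE) and Hspa5 was lower. Sdf2l1, an ER co-chaperone, was at -0.21 ± 0.109 (SE) there.

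Of 41 cytosolic heat shock and chaperone genes tested out of 43, 3 rose in PF relative to AD (7.32%, beside 4.32% of all genes) and 1 fell (2.44%, beside 0.846%). Bag2, a nucleotide exchange factor of Hsp70, had 110.8 ± 41.4 normalized counts in ET (SD, n = 4), 144 ± 15.8 in PF (SD, n = 5) and 81.0 ± 8.56 in AD (SD, n = 5). Its difference between PF and AD was the largest among the list genes that passed, at 0.84 ± 0.0993 (SE, edgeR adjusted p = 0.000122), and its ET samples ranged from 62.2 to 154 across both groups. Ahsa2, a relative of the Hsp90 co-chaperone gene Ahsa1, and Stub1, which encodes the ubiquitin ligase CHIP, rose by 0.42 ± 0.0532 (SE, edgeR adjusted p = 0.000197) and 0.39 ± 0.0562 (SE, edgeR adjusted p = 0.000719). Both were also lower in ET than in PF, at -0.42 ± 0.0634 (SE, edgeR adjusted p = 0.00204) and -0.40 ± 0.0756 (SE, edgeR adjusted p = 0.0101). Fkbp4, an Hsp90-bound immunophilin, fell in PF relative to AD, at -0.24 ± 0.0482 (SE, edgeR adjusted p = 0.0115), and was at 0.23 ± 0.0586 in ET relative to PF (SE, edgeR adjusted p = 0.0623). The list's median in PF against AD was -0.08, with 32 of 41 genes below 0. In ET against PF, 2 genes passed, Ahsa2 and Stub1, both lower in ET (4.88%, near the 3.59% of all genes), and the median was 0.06. At an unadjusted p below 0.05 in edgeR, 4 were higher in ET (9.76%, beside 4.72% of all genes). At that threshold 2 were lower (4.88%, beside 7.21%). The 4 included Fkbp4 and Dnajb6, the latter at 0.27 ± 0.0749 (SE, edgeR adjusted p = 0.0843). In ET against AD, 0 of 41 passed an adjusted p below 0.05 in edgeR and 0 an unadjusted one.

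Ahsa2, Stub1 and Derl3, which differ between PF and both other diets, each overlap another annotated gene (Usp34, Jmjd8 and Smarcb1). Overlap was common among genes that rose in PF relative to AD, 79.2% of those matched to the annotation, beside 45.4% of all genes tested and 37.2% of those that fell. Creld2 overlaps Alg12 and Fkbp4 overlaps LOC120102402, whereas Hspa5, Bag2 and Pdia4 overlap none. The part of overlap in these differences was not tested.

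**Figure D4:**
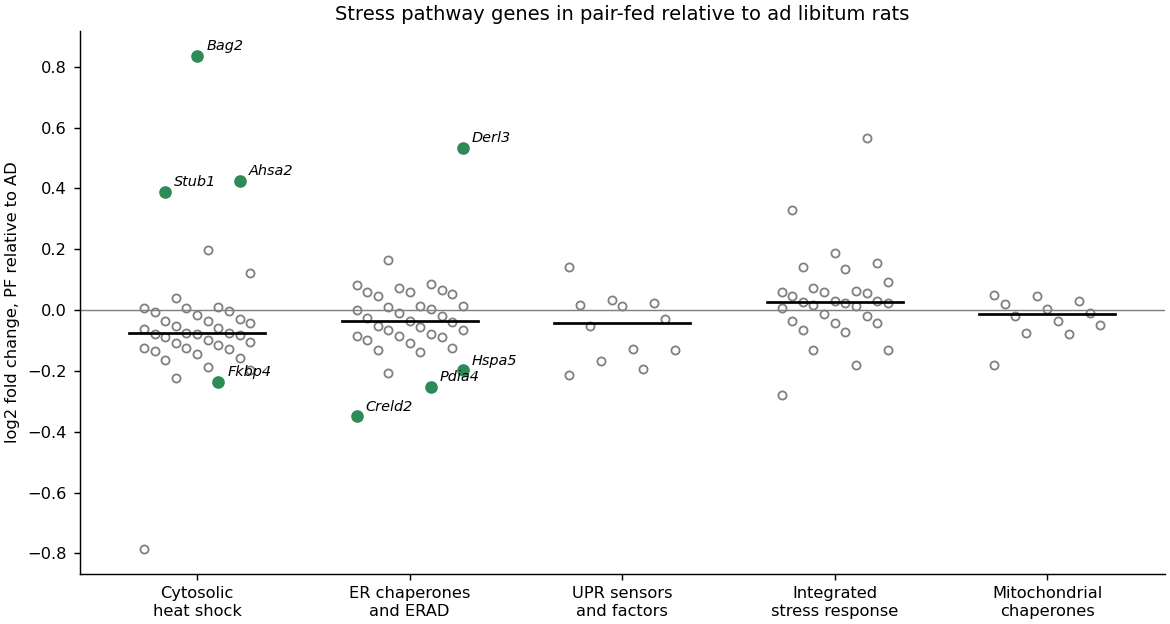
Log2 fold change in PF relative to AD (vertical axis) of each tested gene of the 5 lists, with the list median as a bar. Filled and named points passed an adjusted p below 0.05: Bag2, Ahsa2, Stub1 and Derl3 above 0, and Fkbp4, Hspa5, Pdia4 and Creld2 below 0.

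The 12 genes of the sensors, proteases and transcription factors of the unfolded protein response had 0 at an adjusted p below 0.05 in any diet comparison by edgeR. At an unadjusted p below 0.05, 4 were lower in PF than in AD (33.3%, beside 6.77% of all genes): Xbp1, Atf6b, Creb3l1 and Creb3l2, all transcription factors, of which those other than Xbp1 are activated by cleavage of a membrane precursor. Atf6b was at -0.19 ± 0.0599 (SE, edgeR adjusted p = 0.103) and Creb3l1 at -0.21 ± 0.0823 (SE, edgeR adjusted p = 0.21). In ET against PF, Creb3l1 was at 0.27 ± 0.114 (SE, edgeR adjusted p = 0.372). Ern1, which encodes the sensor IRE1, was at -0.05 ± 0.0678 (SE) in PF relative to AD.

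The list of integrated stress response genes, 32 of 37 tested, holds eIF2α kinases, Atf4 and Ddit3 themselves and further genes of the ATF4 and CHOP arm. It also had none at an adjusted p below 0.05 in any diet comparison by edgeR. In PF against AD, 2 were higher (6.25%, beside 9.66% of all genes) and 1 lower (3.12%, beside 6.77%) at an unadjusted p below 0.05, both shares below those of all genes. Ppp1r15b, the constitutive phosphatase subunit for eIF2α, was at 0.19 ± 0.0631 (SE, edgeR adjusted p = 0.144) and Psph, of serine synthesis, at -0.28 ± 0.108 (SE, edgeR adjusted p = 0.212). Shmt2, the mitochondrial serine hydroxymethyltransferase, was at 0.20 ± 0.0619 in ET relative to PF (SE, edgeR adjusted p = 0.158) and 0.27 ± 0.0838 relative to AD (SE, edgeR adjusted p = 1.00). Atf5 and Ddit4, ATF4 targets, were at 0.19 ± 0.0921 (SE) in ET relative to PF and -0.12 ± 0.0585 (SE) in ET relative to AD. None of 12 mitochondrial chaperone and protease genes passed in any diet comparison by edgeR, and 1 (8.33%, near the 6.77% of all genes lower in PF), Hspd1, which encodes Hsp60, was at an unadjusted p below 0.05, at -0.18 ± 0.0625 in PF relative to AD (SE, edgeR adjusted p = 0.153).

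Marker genes of other cell types differed between the diets as well. The summed level of 8 oligodendrocyte markers was 15758 to 20859 CPM in PF, 17888 to 26007 in AD and 20994 to 28067 in ET, and 1 of the 8 was lower in PF than in AD at an adjusted p below 0.05. The 5 blood markers summed to 300.6 to 692 CPM in PF, 713.7 to 1002 in AD and 673 to 971 in ET, and 3 of 5 fell in PF relative to AD, with a median of -0.78. No blood or oligodendrocyte marker sum was at 0 in any sample. The choroid plexus marker sums of the samples compared were 251.5 to 1760.0 CPM in PF and 210.1 to 412.3 in AD, with a median log2 fold change of 1.37 and 0 of 10 markers at an adjusted p below 0.05 by edgeR. The part of these cell types in the Hspa5 difference was not tested. Astrocyte and endothelial marker sums overlapped between diets, with 0 of 8 and 0 of 7 markers at an adjusted p below 0.05 by edgeR in PF against AD, beside 1 of 8 for microglia and 1 of 7 for thalamus.

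Males and females were compared within ET and PF, where the labels matched the sex-linked genes, with diet as a covariate. No member passed an adjusted p below 0.05 in edgeR, beside 0.0436% of the 16068 genes tested, and none reached an unadjusted p below 0.05 in edgeR, where 1.87% of all genes did, or in DESeq2. Without ET replicate 1 the share of all genes was 9.14% and 1 member, Xbp1, reached it, at 0.17 (edgeR unadjusted p = 0.0245). With ET replicate 2 and PF animal 11f6 included, 1 member reached it in edgeR, where 181 genes were higher and 125 lower in males of 16088. The log2 fold changes of males relative to females were between -0.20 for Hspa8 and 0.22 for Hspb1, with 5 of 10 above 0.

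Whether the 10 genes varied together between littermates was asked by correlating log2(CPM + 1), after subtraction of the diet mean, over the 14 samples. None of the 45 pairs passed a Benjamini-Hochberg adjusted p below 0.05, and the smallest adjusted permutation p was 0.218 for Pearson's r and 0.216 for Spearman's rho. Of the 45, 21 were positive. At an unadjusted permutation p below 0.05 by r or rho there were 11 pairs, 8 positive and 3 negative. The positive pairs not described further were Hsp90aa1 with Hsp90b1, Hspb1 with Ddit3, Hspb1 with Xbp1 and Ddit3 with Atf4. Atf4 and Xbp1 had r = 0.504 (permutation p = 0.0199) and rho = 0.587 (permutation p = 0.01), and r = 0.658 without the 2 samples farthest from the median of Atf4. Hspa5 and Hsph1 had r = 0.685 (permutation p = 0.0322) and rho = 0.640 (permutation p = 0.0529), and r = 0.557 without the 2 samples farthest from the median of Hspa5. Hspb1 and Atf4 had r = 0.682 (permutation p = 0.0175) and rho = 0.534 (permutation p = 0.0554), and the relation rested on the 2 samples farthest from the median of Hspb1, without which r was 0.334. Hspa8 and Hsp90aa1 had r = 0.663 (permutation p = 0.0305) and rho = 0.697 (permutation p = 0.019), and r = 0.349 without the 2 samples farthest from the median of Hspa8. Of the negative pairs, Hsph1 and Atf4 had r = -0.627 (permutation p = 0.036) and rho = -0.565 (permutation p = 0.0542), and r = -0.735 without the 2 samples farthest from the median of Hsph1. Ddit3 and Hspa8 had r = -0.504 (permutation p = 0.0871) and rho = -0.648 (permutation p = 0.024), and r = -0.491 without the 2 samples farthest from the median of Hspa8. Ddit3 and Hsp90aa1 had r = -0.411 (permutation p = 0.146) and rho = -0.640 (permutation p = 0.0219), and r = -0.343 without the 2 samples farthest from the median of Hsp90aa1.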

How the data were processed

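The members and gene lists were chosen with earlier results of these data known. The authors trimmed reads with fastp, mapped them to mRatBN7.2 with Bowtie2 2.4.2 and counted fragments on exons with featureCounts 2.0.1 at a minimum mapping quality of 10, with reads allowed to count for several features. The strand setting and annotation release are not given in the sources used here. What the authors deposited has the form of expected counts: for each gene, the mean number of fragments over 3 technical replicates, without normalization. Bowtie2 does not split reads over introns, and fragments carry no molecular identifiers. These means summed to 10853947 to 17498392 fragments per sample.

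The samples left out of the comparisons are those the study left out of its final analysis. Averages were rounded, genes with low counts removed (filterByExpr), libraries scaled by TMM, and 2 diets at a time compared in edgeR 4.0.16 (R 4.3.3) by its quasi-likelihood test, with p-values adjusted by Benjamini-Hochberg over all genes tested. The SE is the absolute log2 fold change over the square root of F. Normalized counts are TMM-scaled to the mean effective library size of the 17 samples. Correlations used 100000 two-sided permutations within diets and a pseudocount of 1 (Python 3.11.15, scipy 1.17.1, pandas 2.3.3, numpy 2.4.6). Plots used matplotlib 3.10.9. Promoters and overlapping genes came from RefSeq's GRCr8, which 84.1% of symbols matched.

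Besides members, genes named are the 2 with the smallest p in each list and diet comparison, and Creld2, Fkbp4, Hyou1, Calr, Manf, Sec61b, Creb3l2, Gapdh and Ppia, which were chosen after their values were seen, as were the pineal genes. Of these, Dnaja3, Hspe1 and Dnajb6 did not pass an adjusted p below 0.05 in any comparison. Animals 11f5 and 11f6 are named as in the count table because the labels do not pair them with replicate numbers. No pair of samples of a diet agreed within sampling noise (smallest chi-square per gene 3.05 over 40 pairs).

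Tested on counts simulated for ET against PF (16068 genes), edgeR recovered 83 of 89 genes changed by 1 and 107 of 111 changed by 2.5 on the log2 scale, with 15 false calls. Every simulated gene had the same dispersion. Changes as small as those of most members were not simulated, so their recovery is not known. The alternatives were DESeq2 1.42.0, median-of-ratios scaling, no low-count filter, summed technical replicates, all 17 samples, 1 fit of the 3 diets, sex as a covariate, the replicate number as a block, no overlapping genes, no right hippocampi, an absolute fold change above 1.5, a pseudocount of 0.1, and each replicate left out. Leaving out AD replicates 1 and 2 was added after the data were seen.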

Additional observations from a re-analysis of the deposited data

Results flagged for a closer look

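Of 30 groups of values (10 genes in 3 diets, all 17 samples), 2 held a sample far from the others by Dixon's test, which by chance marks about 1 group in 20. Hspa5 in PF animal 11f6 was 5478 normalized counts, the highest of its group, with a gap to the next of 0.761 of the group's range. That sample is 1 of the 3 left out, and its choroid plexus markers summed to 10500.5 CPM against 251.5 to 1760.0 in the other PF samples. With it, Hspa5 in PF relative to AD was -0.17 ± 0.0559 (SE, edgeR adjusted p = 0.0994), without it and the other 2 samples -0.20 ± 0.048 (SE, edgeR adjusted p = 0.0322). Hspb1 in AD replicate 6 was 274 normalized counts, with a gap of 0.862 of the range. That sample had 12886 normalized counts of the pineal gene Tph1, and without it Hspb1 was -0.17 ± 0.147 in PF relative to AD (SE, edgeR adjusted p = 0.656). What part the choroid plexus or pineal genes have in either value was not tested.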

How the results depend on the processing

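Over the 3 diet comparisons, the sexes and the 10 members, 708 of the members' values in the alternatives kept their direction where called and their side of an adjusted p of 0.05, 12 fell back over it and 1 passed it. All 12 were Hspa5 in PF against AD, and the 1 was Xbp1 there without PF replicate 6. Members passing in PF against AD were 0 with all 17 samples, sex as a covariate, the replicate block, no overlapping genes or without AD replicates 1 and 2, and 0 to 2 with each replicate left out, 1 otherwise. The sex covariate was taken from the labels, which the Y-linked genes went against in AD replicates 1 and 2. The samples whose loss took Hspa5 over the threshold were PF replicates 1, 2 and 3, PF animal 11f5 and AD replicates 1, 2 and 5 (edgeR adjusted p from 0.0556 to 0.09).

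Over all genes, those meeting the study's rule numbered 349 in ET against PF (197 with the replicate block, 127 without overlapping genes), 2 in ET against AD (0 with the block) and 327 in PF against AD (493 without the low-count filter, 122 without overlapping genes). At an adjusted p below 0.05 they were 664 in ET against PF (359 with the block, 216 without overlapping genes), 2 in ET against AD (11 in DESeq2, 6 with all 17 samples, 5 in 1 fit of the 3 diets, 2 to 4 with each replicate left out) and 825 in PF against AD (310 without overlapping genes). Fewer genes are tested without overlapping genes, and otherwise the cause was not tested. The replicate block leaves out PF animal 11f5, which has no number. Only numbers found in both diets inform its diet difference: 2 in ET against PF, 3 in ET against AD and 4 in PF against AD. Same-numbered samples are different animals whose deviations correlated at -0.28 to 0.64 over the same-numbered pairs. Their mean was 0.31 in ET against PF, -0.06 in ET against AD and 0.002 in PF against AD. Pairs with different numbers had means of -0.04, 0.02 and -0.002. The numbers were not used to pair samples in the main fits. The least counted member was Hspa8, at a mean of 10.7 to 31.3 fragments per technical replicate. With 1 litter per diet no alternative separates diet from litter.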
